A study of Mus musculus with 72 samples.

Results

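The epidermal differentiation complex is a cluster of structural and calcium-binding protein genes on mouse chromosome 3, and its genes were followed here in interfollicular epidermis, the skin epithelium between the hair follicles. Members were protein-coding genes of that chromosome whose symbols begin with Sprr, Lce or S100a (S100a8 and S100a9 left out) or are Flg, Flg2, Hrnr, Rptn, Tchh, Tchhl1, Crnn, Crct1, Ivl or Lor, with at least 10 counts in at least 4 of the 72 libraries. Of 46078 gene identifiers in the files, 58 fitted the names and 33 passed the minimum, comprising 9 of 15 small proline-rich genes, 7 of 21 late cornified envelope genes, 4 of 7 fused S100 genes, 10 of 12 single S100 genes, and Ivl, Lor and Crct1. The members lie between base 90511034, the start of S100a1, and base 93564643, the end of S100a10, in the build GRCm38. The minimum was met in 4 libraries by Sprr2f, in 5 by Sprr2d and in 7 by Lce1l, while Lce1d, Crnn and Tchhl1 met it in 2 libraries and stayed out. Of the 33 members, 32 also passed the filter on low counts used for testing, and Lce1l did not.

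The study addressed what the epidermal clock does when clocks elsewhere in the body are present or absent, in animals held in constant darkness. All animals were female C57BL/6 mice of 8 weeks that had spent 156 to 176 h in darkness, and 4 animals were sampled per genotype at each of 6 time points. KO animals were Bmal1-stopFL, RE animals were Bmal1-stopFL/K14-Cre, and WT animals were K14-Cre. The core clock gene Bmal1 is blocked throughout the body by a removable stop cassette in KO animals, which have no Cre, and is released in RE animals wherever the keratin 14 promoter drives Cre, which is chiefly the basal layer of stratified epithelia. RE and WT animals carry Cre and KO animals do not, so the absence of Bmal1 and the absence of Cre cannot be told apart in comparisons with KO animals. The hour of each time point is not given, and even steps of 4 h were assumed.

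Keratinocytes leave the basal layer, switch on the complex in stages as they rise, and finish as flattened dead cells with a cross-linked protein shell, the cornified envelope. Involucrin and the small proline-rich proteins are laid down early, loricrin and the late cornified envelope proteins later, and transglutaminases join them into the shell. The fused S100 proteins fill the granules and bundle keratin, and most of the single S100 proteins are small calcium sensors.

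Members differ in what lies just before their start sites, which is shown here for 7 genes because they include the clearest differences in both directions. The letters TGANTCA, bound by the factor family AP-1, were searched on both strands in RefSeq windows of GRCm38.p6 that run from 250 bases before to 50 bases after each start. The motif lay in 10 of 30 members' windows (33.3%), against 7.81% of all 32851 windows of that length. Crct1, S100a10 and S100a14 had no window, and where a gene had several annotated starts, the window of lowest coordinate was counted. S100a16 held the motif in its other window only. The 250 bases before each start are printed 5′ to 3′ in lower case, with the motif in capitals.
Ivl, chr3:92573736-92573985, minus strand: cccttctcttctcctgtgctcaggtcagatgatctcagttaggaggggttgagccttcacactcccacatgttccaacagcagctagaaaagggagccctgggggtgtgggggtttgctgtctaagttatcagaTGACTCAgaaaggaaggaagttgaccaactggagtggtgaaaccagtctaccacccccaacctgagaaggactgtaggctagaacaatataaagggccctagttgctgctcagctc
Sprr1a, chr3:92485882-92486131, minus strand: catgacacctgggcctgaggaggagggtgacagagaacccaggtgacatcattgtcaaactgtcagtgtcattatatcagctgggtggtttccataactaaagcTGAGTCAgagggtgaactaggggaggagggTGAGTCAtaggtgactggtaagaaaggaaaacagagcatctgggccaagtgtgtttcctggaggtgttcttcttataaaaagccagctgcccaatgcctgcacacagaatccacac
Flg2, chr3:93197023-93197272, plus strand: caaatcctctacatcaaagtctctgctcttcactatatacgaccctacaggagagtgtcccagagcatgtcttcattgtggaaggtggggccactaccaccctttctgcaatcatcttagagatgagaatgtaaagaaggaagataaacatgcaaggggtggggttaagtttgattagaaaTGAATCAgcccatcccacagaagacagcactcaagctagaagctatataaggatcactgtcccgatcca
Sprr2d, chr3:92338890-92339139, plus strand: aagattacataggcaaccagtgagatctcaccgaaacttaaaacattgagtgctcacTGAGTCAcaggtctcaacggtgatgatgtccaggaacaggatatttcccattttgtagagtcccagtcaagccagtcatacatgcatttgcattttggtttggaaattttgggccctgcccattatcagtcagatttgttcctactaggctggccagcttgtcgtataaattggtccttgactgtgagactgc
Hrnr, chr3:93319499-93319748, plus strand: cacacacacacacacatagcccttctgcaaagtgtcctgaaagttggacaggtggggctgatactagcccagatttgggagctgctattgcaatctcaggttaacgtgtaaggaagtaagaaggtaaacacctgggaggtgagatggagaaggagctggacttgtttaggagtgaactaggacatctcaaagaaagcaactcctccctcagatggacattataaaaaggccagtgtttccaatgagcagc
Tchh, chr3:93442080-93442329, plus strand: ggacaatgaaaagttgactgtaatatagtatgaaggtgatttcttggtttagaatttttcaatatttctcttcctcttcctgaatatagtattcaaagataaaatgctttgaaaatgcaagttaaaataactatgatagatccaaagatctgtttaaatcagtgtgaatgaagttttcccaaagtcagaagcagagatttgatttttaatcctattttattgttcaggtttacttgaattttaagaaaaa
Sprr2a1, chr3:92215585-92215834, plus strand: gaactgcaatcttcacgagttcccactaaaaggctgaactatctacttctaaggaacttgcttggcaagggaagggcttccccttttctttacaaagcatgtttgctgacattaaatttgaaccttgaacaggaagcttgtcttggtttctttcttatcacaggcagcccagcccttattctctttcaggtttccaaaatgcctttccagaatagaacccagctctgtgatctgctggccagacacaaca

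The window of Sprr2a2 holds the same 300 bases as that of Sprr2a1, and the window of Sprr2a3 matches it at all 272 bases that overlap after a shift of 28 bases. The motif began 116 bases before the start of Ivl, 146 and 116 before Sprr1a, 69 before Flg2, 48 before Lor and 111 before Sprr1b. In Sprr2d, Sprr2f and Sprr2h it began 193, 197 and 198 bases before the start. Such related genes may not be separate observations in the share of members with the motif. The clock factors' E-box CACGTG lay in 2 of 30 members' windows (6.7%), those of S100a6 and S100a11, against 7.15% of all windows. Other motifs were searched in the same windows. AGGTCA, a nuclear receptor site, lay in 10 of 30 members' windows (33.3%), against 16.26% of all windows. TGACNNNGC, the antioxidant response element core, lay in 5 (16.7%), against 12.39%. The D-box TTATGNAA and the C/EBP motif TTGCNNAA each lay in 2 (6.7%), against 3.38% and 10.8%. A match is a string of letters and no measure of binding.

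Levels among the members spanned more than 4 orders of magnitude per kb of annotated exon. S100a11, a transglutaminase substrate, had the highest mean over the 72 libraries at 894 CPM per kb (CPM, a library's counts scaled to the same total in every library), followed by S100a14 at 277, S100a10 at 221, S100a16 at 140 and S100a6 at 98.6 CPM per kb. The leading small proline-rich gene was Sprr1a at 54.9 CPM per kb, ahead of involucrin (Ivl) at 38.5, and the ranges of those genes overlapped within each genotype. Among the fused S100 genes Flg2 stood at 9.21 and Hrnr at 7.38 CPM per kb, with overlapping ranges. Loricrin (Lor) stood at 5.45 CPM per kb, and the late cornified envelope genes began with Lce1a1 at 2.34, Lce1m at 2.32 and Lce6a at 1.96 CPM per kb, which were not separated by their spreads. S100a3 was last at 0.0640 CPM per kb. Exon lengths join all annotated transcripts, so a gene with long rare transcripts ranks lower than its main transcript would.

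**Figure D1:**
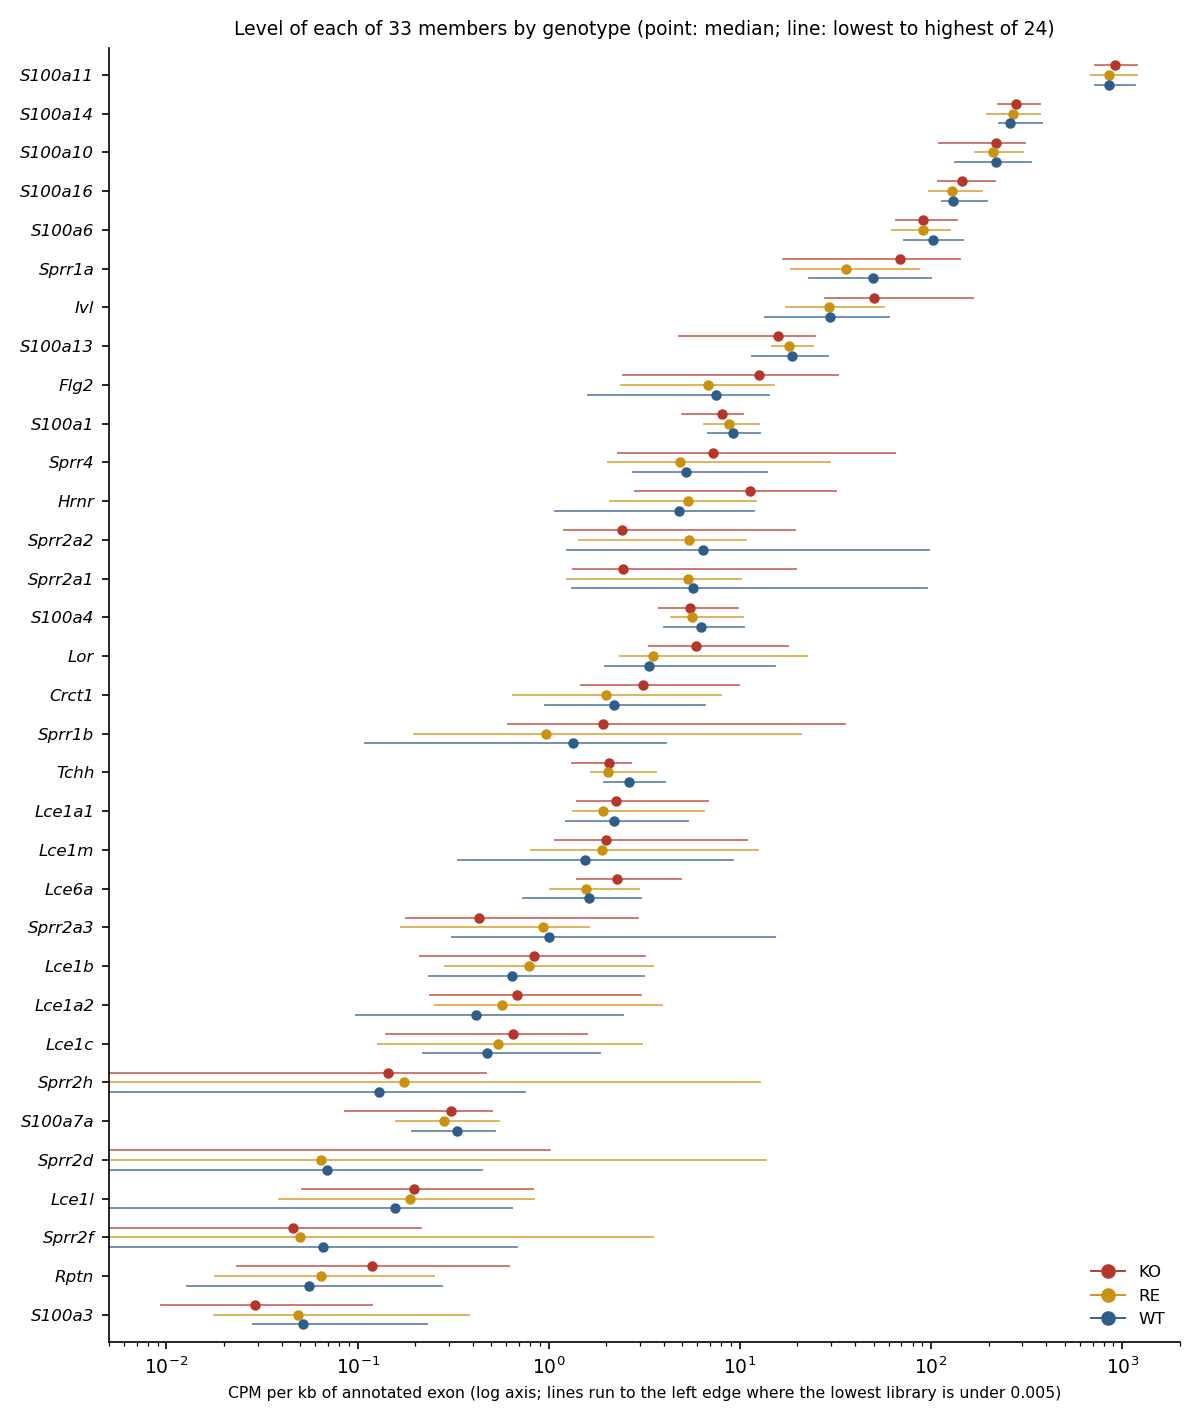
Level of each of the 33 members in KO, RE and WT epidermis, in CPM per kb of annotated exon on a log axis. Points are medians of 24 libraries and lines run from the lowest to the highest library, and the 5 single S100 genes at the top lie above every other member's median in all 3 genotypes.

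Filaggrin (Flg), the best known granule protein of the complex, had 0 counts in 66 libraries and at most 2 in any. A count of 0 allows a level of up to 0.0316 to 0.122 CPM over these libraries, which covers counting error only. In its longest annotated transcript 79.2% of the 50-base stretches occur more than once, against 69.1% in Hrnr and 65.3% in Flg2, with median counts of 5920 in Flg2 and 2237.5 in Hrnr. How the authors treated reads with several positions was not given, so the level of Flg was not assessed. Sprr3, a small proline-rich gene of mucosal epithelia, had 0 counts in all 72 libraries, and all of Lce3a to Lce3f stayed below the minimum.

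Library totals ran from 24491845 to 95033496 counts. The targeted gene Arntl (Bmal1) had a lowest, median and highest level of 26.1, 31.0 and 35.1 CPM in KO, 47.1, 62.8 and 76.2 CPM in RE, and 18.1, 44.5 and 99.2 CPM in WT libraries. The KO values lie inside the WT range, and a count over the whole gene does not show which exons the reads came from. Summed basal keratinocyte markers stood at 3148 CPM or more and suprabasal markers at 13545 CPM or more in every library. The hair keratin Krt85 was at 0 in the median library, the only inner root sheath and hair shaft marker counted for which this held. The sum of those markers reached 7.34 CPM in KO, 47.7 CPM in RE and 35.7 CPM in WT libraries. Krt85 alone therefore does not show that hair follicle material was absent. Replicate 4 of KO and of WT at time point 6 and replicate 1 of RE at time point 6 stood apart from the rest. Their summed level of 6 basal markers was 3148, 9487 and 13022 CPM, the lowest of their genotypes, whose medians were 22232, 22625 and 21446 CPM. Mitochondrial genes held 5.47%, 8.36% and 5.94% of their counts. The other libraries had 2.04% to 3.69%, except replicate 2 of WT at time point 6 with 5.70%. Their summed erythrocyte markers, at 629, 271 and 198 CPM, were the highest of their genotypes, whose medians were 69.9, 31.9 and 49.1 CPM.

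The members' mean level over the cycle differed between KO and WT epidermis for 15 of the 32 tested, with 9 higher and 6 lower in KO. Over all 18538 genes, 28.2% passed the same test, 14.6% higher and 13.6% lower. The median log2 difference, KO minus WT, was 0.12 over the tested members and -0.003 over all genes tested. The genes that rose were Ivl, Lor, Hrnr, Flg2, Rptn, Lce6a, Sprr1a, Sprr1b and Sprr4. Those that fell were Sprr2a1, Sprr2a2, Sprr2a3, Tchh, S100a3 and S100a13. Differences are log2 values with their standard errors, and each adjusted p is from edgeR's quasi-likelihood test with Benjamini-Hochberg adjustment over all genes. In tissue RNA, fewer cells of a type and less RNA per cell cannot be told apart.

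**Figure D2:**
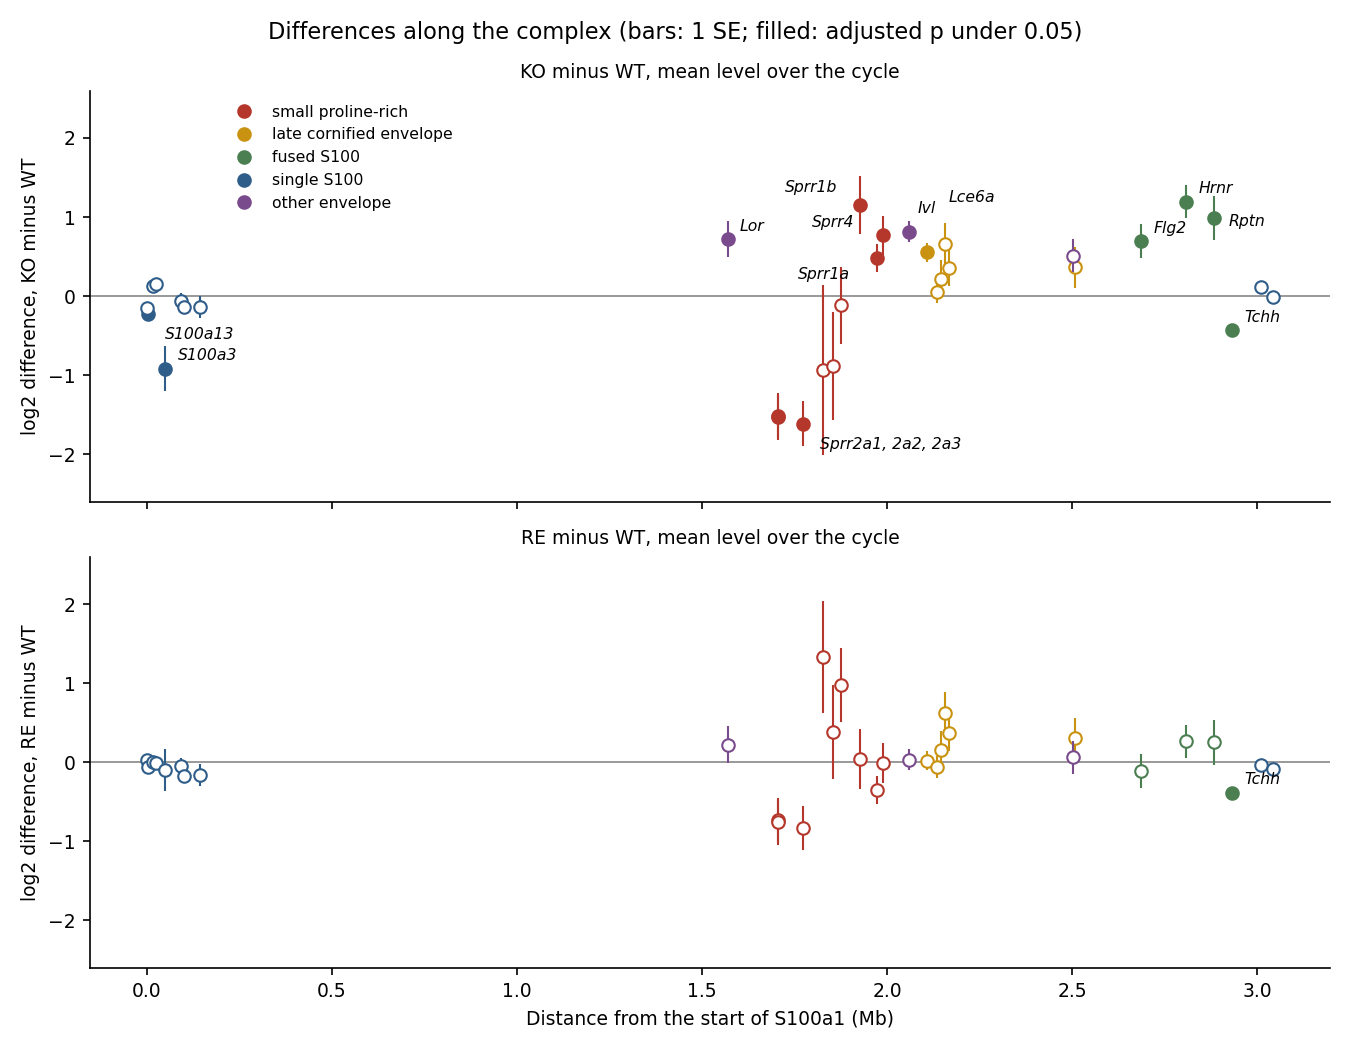
Log2 difference in mean level of the 32 tested members by distance from the start of S100a1 in Mb, KO minus WT above and RE minus WT below. Bars are 1 standard error, filled points passed an adjusted p of 0.05, and 15 points are filled above against 1, Tchh, below.

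Among the envelope scaffolds, Ivl had a lowest, median and highest level of 53.9, 96.1 and 318 CPM in KO libraries, against 26.0, 56.6 and 116 CPM in WT libraries. Of the 24 KO libraries 23 lay above the WT median, and the mean was higher in KO at 6 of 6 time points. The log2 difference was 0.81 ± 0.13 (adjusted p = 1.93e-06). Lor, the most abundant protein of the finished envelope, had 5.97, 10.5 and 31.9 CPM in KO and 3.49, 5.99 and 27.3 CPM in WT libraries. Again 23 of 24 KO libraries lay above the WT median although the ranges overlapped, and the log2 difference was 0.72 ± 0.23 (adjusted p = 0.0134). Crct1, which is expressed with the late envelope genes, had a log2 difference of 0.51 ± 0.21 and did not pass (adjusted p = 0.056). The call for Lor was lost when time point 1, 2, 4 or 5 was left out, with adjusted p of 0.0743, 0.0927, 0.117 and 0.0542, whereas that for Ivl was kept in those fits.

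Of the 4 fused S100 genes, 3 rose and 1 fell in KO epidermis. Hornerin (Hrnr), a filaggrin-like granule protein, had 31.7, 126 and 355 CPM in KO against 12.1, 53.5 and 133 CPM in WT libraries. As many as 11 of 24 KO libraries lay above the highest WT library, and the log2 difference was 1.20 ± 0.21 (adjusted p = 6.5e-06). Flg2, which supports the barrier at the granular layer, had 50.9, 262 and 675 CPM in KO and 33.5, 156 and 296 CPM in WT libraries, with 9 KO libraries above the WT range. Its log2 difference was 0.70 ± 0.21 (adjusted p = 0.00984), and it did not pass without time point 6 (adjusted p = 0.0619). Repetin (Rptn), a minor envelope precursor, was at 0.491 CPM in the median KO and 0.23 CPM in the median WT library, 20 of 24 KO libraries lay above the WT median, and it had a log2 difference of 0.99 ± 0.27 (adjusted p = 0.00368). Long internal repeats make the counts of Hrnr and Flg2 depend on how such reads were counted.

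Trichohyalin (Tchh), the granule protein of the inner root sheath of the hair follicle, moved the other way. It had 7.75, 12.0 and 15.7 CPM in KO libraries, 9.65, 11.9 and 21.2 CPM in RE libraries, and 11.3, 15.4 and 23.6 CPM in WT libraries. The log2 difference was -0.43 ± 0.07 in KO (adjusted p = 4.99e-06) and -0.38 ± 0.07 in RE (adjusted p = 0.000524), both against WT. The mean lay below that of WT at 6 of 6 time points in both genotypes, and 1 of 24 KO and 3 of 24 RE libraries lay above the WT median. These comparisons share the WT libraries. Between RE and KO themselves the log2 difference was 0.05 ± 0.07 (adjusted p = 0.675).

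S100a3, a protein of the hair cuticle, had 0.0533, 0.165 and 0.671 CPM in KO against 0.161, 0.294 and 1.31 CPM in WT libraries. Its log2 difference was -0.92 ± 0.29 (adjusted p = 0.00961), and it did not pass without time point 4 (adjusted p = 0.0831). Between KO and WT, markers of the inner root sheath and hair shaft went the same way as S100a3 and Tchh. Between RE and WT, Tchh passed and neither S100a3 nor the markers did. In KO, 7 of 9 tested markers were lower, among them Krt25 with a log2 difference of -2.65 ± 0.53 (adjusted p = 4.3e-05), and in RE 0 of 9 passed. Their summed level ran from 0.764 to 7.34 CPM in KO, 1.05 to 47.7 CPM in RE and 1.03 to 35.7 CPM in WT libraries. The medians of that sum were 1.374 CPM in KO, 1.832 CPM in RE and 2.602 CPM in WT. The highest KO and RE values belonged to libraries that stood apart, replicate 4 of KO and replicate 1 of RE at time point 6. The part of hair follicle cells in these results was not tested.

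The small proline-rich genes, whose short repeats bridge other envelope proteins, moved in both directions. Sprr1a, Sprr1b and Sprr4 rose in KO, and Sprr2a1, Sprr2a2 and Sprr2a3 fell. Sprr1a had 13.6, 55.2 and 114 CPM in KO and 18.5, 40.0 and 80.1 CPM in WT libraries, which overlapped broadly, and its log2 difference was 0.48 ± 0.18 (adjusted p = 0.0354). That call was lost in 9 of the 72 fits that each left out 1 library, with an adjusted p of up to 0.0932 when the KO library of replicate 4 at time point 6 was left out, and of 0.0647 to 0.271 without time point 1, 2, 4 or 5. It was lost too with no filter on low counts (adjusted p = 0.0706), with limma voom (adjusted p = 0.0813) and with a replicate block (adjusted p = 0.0514). Sprr4 had 0.533, 1.68 and 14.9 CPM in KO and 0.638, 1.21 and 3.22 CPM in WT libraries, and its log2 difference of 0.77 ± 0.25 (adjusted p = 0.0153) did not pass without the same library (adjusted p = 0.083) or without time point 2 or 4 (adjusted p = 0.138 and 0.139). Sprr1b had 0.506, 1.60 and 29.4 CPM in KO and 0.0912, 1.11 and 3.40 CPM in WT libraries. Its highest value was replicate 2 of KO at time point 5, and its log2 difference of 1.15 ± 0.37 (adjusted p = 0.014) was 0.67 without that library and did not pass (adjusted p = 0.129). It did not pass without time point 1, 2 or 5 either (adjusted p = 0.111, 0.137 and 0.251).

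Sprr2a1 had 4.02, 7.32 and 59.3 CPM in KO libraries, 3.73, 16.1 and 30.5 CPM in RE libraries, and 3.96, 17.1 and 287 CPM in WT libraries. Only 2 of 24 KO libraries lay above the WT median, against 11 of 24 RE libraries. The KO minus WT log2 difference was -1.51 ± 0.28 for Sprr2a1, -1.53 ± 0.28 for Sprr2a2 and -1.61 ± 0.29 for Sprr2a3, with adjusted p of 3.52e-05, 2.9e-05 and 1.26e-05. In the 72 fits that each left out 1 library the difference for Sprr2a1 ran from -1.76 to -1.05 and passed every time. Of the 50-base stretches of their transcripts, 96.3% in Sprr2a1, 96.5% in Sprr2a2 and 61.1% in Sprr2a3 also occur in other annotated genes, so the split of reads among them is uncertain. Summed over the 3 genes, the lowest, median and highest level was 8.51, 15.4 and 124 CPM in KO, 8.54, 34.9 and 66.5 CPM in RE, and 8.48, 38.2 and 614 CPM in WT libraries. The summed values point the same way at the median, with ranges that overlap.

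Of the 6 late cornified envelope genes tested, Lce6a alone passed, at 1.11, 1.81 and 3.90 CPM in KO against 0.583, 1.29 and 2.41 CPM in WT libraries. Its log2 difference was 0.55 ± 0.12 (adjusted p = 0.000181), and 22 of 24 KO libraries lay above the WT median. The other 5, all of the Lce1 group, had log2 differences from 0.06 ± 0.14 (Lce1a1) to 0.66 ± 0.27 (Lce1a2, adjusted p = 0.055). Lce1 genes share sequence, and the Lce1 members summed had a median of 5.12 CPM in KO and 4.30 CPM in WT libraries.

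Of the 10 single S100 genes tested, which include the 5 most abundant members per kb, 2 fell in KO, S100a3 and S100a13, a partner in the release of growth factor Fgf1. S100a13 had 3.43, 11.3 and 17.7 CPM in KO and 8.27, 13.4 and 20.6 CPM in WT libraries, with a log2 difference of -0.23 ± 0.08 (adjusted p = 0.0316). Leaving out time point 1, 2, 3, 4 or 5, or replicate 3 of WT at time point 3, moved its adjusted p to between 0.0513 and 0.101. S100a11 (0.11 ± 0.05), S100a14 (0.12 ± 0.06) and S100a10 (-0.02 ± 0.07) had small log2 differences that did not pass.

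**Figure D3:**
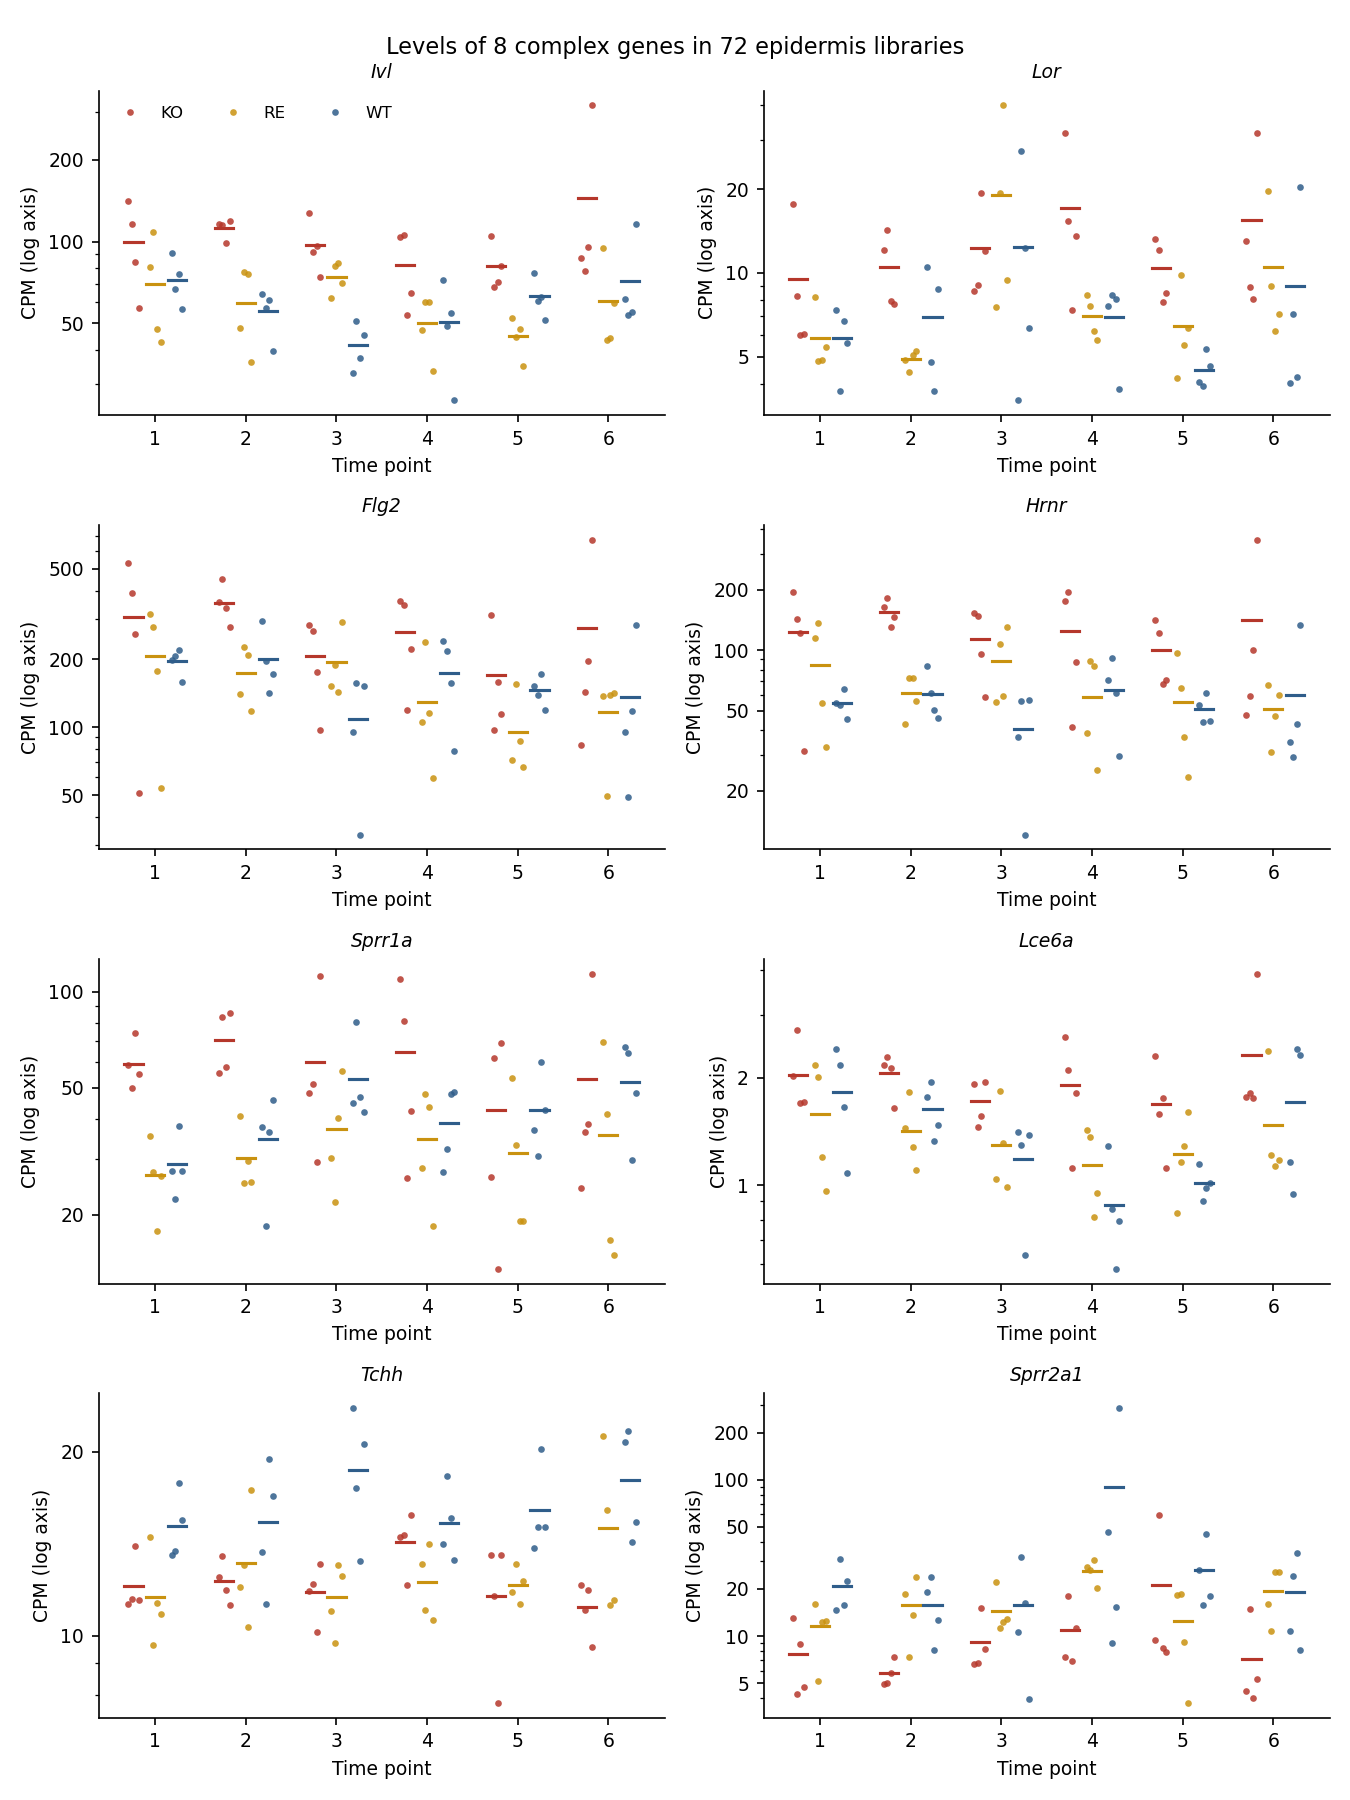
Level of 8 members in each library in CPM (log axis) at the 6 time points, with KO, RE and WT libraries side by side and a bar at each group's mean. Mean levels of Ivl, Flg2, Hrnr, Sprr1a and Lce6a are higher in KO than in WT at 6 of 6 time points, those of Tchh and Sprr2a1 are lower at 6 of 6, and 1 WT library at time point 4 has 287 CPM of Sprr2a1.

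Genes that work with the complex were examined as lists. Of 22 partners in cornification, outside the complex by its rule, 16 rose and 1 fell in KO against WT, with a median log2 difference of 0.44. Dermokine (Dmkn), a secreted protein of the upper layers, had 0.63 ± 0.09 (adjusted p = 8.28e-08), suprabasin (Sbsn) 0.49 ± 0.09 (adjusted p = 2.45e-05) and the peptidoglycan receptor Pglyrp3 0.96 ± 0.18 (adjusted p = 3.05e-05). Keratin 2 (Krt2), a keratin of the upper layers, was the gene that fell, by 1.60 on the log2 scale (SE 0.23, adjusted p = 1.52e-07). Transglutaminases Tgm1 and Tgm5 rose by 0.59 ± 0.14 and 0.59 ± 0.16 in KO (adjusted p = 0.00104 and 0.00269), and were named after their values were seen. Tgm3, the other transglutaminase on the list, was higher in RE than in KO, as given below. Tgm1 and Tgm5 therefore do not stand for all transglutaminases.

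Of 22 regulators known from work on the complex, 7 were called in KO, 3 higher and 4 lower, a share near the 28.2% of all genes and so no result about the regulators as a group. Their median log2 difference was 0.02. Those with the smallest p are given for reference. Grainyhead factors Grhl1 and Grhl3, which drive terminal differentiation, rose by 0.33 ± 0.06 and 0.34 ± 0.07 on the log2 scale (adjusted p = 4.48e-05 and 0.000184). The glucocorticoid receptor gene Nr3c1 fell by 0.16 (SE 0.03, adjusted p = 6.09e-05), and Hopx, a homeodomain protein of upper keratinocytes, fell by 0.28 (SE 0.07, adjusted p = 0.00062). None of the AP-1 genes on the list, Jun, Junb, Fos, Fosl1 and Fosl2, passed, and they too were named after their values were seen. In the windows described above, TGANTCA lay in 6 of the 9 members that rose (Ivl, Lor, Flg2, Rptn, Sprr1a and Sprr1b) in 0 of the 6 that fell, and in 4 of the 14 uncalled members with a window (Sprr2d, Sprr2f, Sprr2h and S100a11). Of the 6 that fell, the 3 Sprr2a windows hold the same sequence where they overlap, so they are not separate observations. Among those with the motif, Sprr2d, Sprr2f and Sprr2h are of one family and hold it at nearly the same position. Sprr1a and Sprr1b are also related, so these too may not be separate observations. These counts carry no test.

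The 5 suprabasal keratinocyte markers, all of which are also on the list of cornification partners, rose in KO, 5 of 5, with a median log2 difference of 0.43. Their summed level ran from 15605 to 60993 CPM in KO with a median of 27091, from 17544 to 26842 CPM in RE with a median of 22478, and from 13545 to 40820 CPM in WT with a median of 20204. The highest values of KO and WT belonged to replicate 4 at time point 6. Of 6 basal markers, 2 fell in KO. Among markers of other cell types, 3 of 5 erythrocyte markers rose in KO (median log2 difference 0.98), while 3 of 6 of dendritic epidermal T cells (-0.34), 3 of 5 of melanocytes (-0.73) and 2 of 5 of the sebaceous gland (-0.56) fell. The summed erythrocyte level ran from 37.4 to 629 CPM in KO and from 20.9 to 271 CPM in WT libraries. Both highest values again belonged to replicate 4 at time point 6. The summed T cell level ran from 8.35 to 96.9 CPM in KO and from 27.5 to 112 CPM in WT libraries. The melanocyte sum ran from 13.7 to 35.1 CPM in KO and from 17.3 to 42.7 CPM in WT. Its medians were 20.6 CPM in KO and 26.0 CPM in WT. The sebaceous sum ran from 458 to 937 CPM in KO and from 369 to 1738 CPM in WT. Its medians were nearly the same, at 634 CPM in KO and 637 CPM in WT. The value of 1738 CPM belonged to replicate 4 of WT at time point 4. None of the Langerhans cell, fibroblast or hair follicle stem cell markers passed. These counts of a few genes stand beside the 28.2% of all genes called, and the part of cell makeup in the members' differences was not tested. In an alternative chosen after seeing the data, without the 3 libraries that stood apart, 16 members were called between KO and WT, 14 of them among the 15 above. Crct1 and Lce1a2 were added, and Sprr1a was lost.

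In RE epidermis, with Bmal1 restored where keratin 14 is expressed, 1 of 32 members differed in mean level from WT, against 4.03% of all genes. That member was Tchh, given above, and 7 members had an unadjusted p under 0.05. The median log2 difference, RE minus WT, was -0.0006 over the members and 0.01 over all genes. Ivl had 33.3, 55.9 and 109 CPM in RE, with a log2 difference of 0.03 ± 0.13 from WT, and 12 of 24 RE libraries lay above the WT median. The corresponding values were 0.26 ± 0.21 for Hrnr, -0.11 ± 0.21 for Flg2, 0.22 ± 0.23 for Lor and 0.02 ± 0.12 for Lce6a. For Sprr2a1 it was -0.73 ± 0.28 (adjusted p = 0.133) and for Sprr2a3 -0.83 ± 0.28 (adjusted p = 0.0757), the member nearest to a call after Tchh. When the WT library of replicate 4 at time point 6 was dropped, the calls numbered 3, with Lce1a2 and Sprr2a3 added. A p that misses the threshold does not show equal levels. None of the 22 cornification partners and 1 of the 22 regulators, Hopx at -0.25 ± 0.07 (adjusted p = 0.0175), passed.

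RE and KO epidermis were also compared directly, and 15 of 32 members differed, 10 lower and 5 higher in RE, against 22.5% of all genes, 11% lower and 11.5% higher. Ivl had a log2 difference, RE minus KO, of -0.78 ± 0.13 (adjusted p = 7.1e-06), and 12 of 24 RE libraries lay below the lowest KO library. Hrnr had 23.5, 59.7 and 136 CPM in RE libraries and the KO values given above, a log2 difference of -0.93 ± 0.21 (adjusted p = 0.000515). Sprr1a had 15.0, 28.8 and 69.8 CPM in RE, with -0.83 ± 0.18 (adjusted p = 0.000358), and Lce6a had -0.53 ± 0.12 (adjusted p = 0.000485). Flg2 had -0.81 ± 0.21 (adjusted p = 0.00383), and Sprr4, Sprr1b, Rptn, S100a16 and S100a11 were also lower. The 3 Sprr2a genes were higher in RE by 0.77 to 0.78 (adjusted p of 0.0413 to 0.0437), as were S100a3 (0.82 ± 0.29, adjusted p = 0.03) and Sprr2d (2.26 ± 1.06, adjusted p = 0.0472). Sprr2d had a median of 0 CPM in KO, and its difference was 1.45 without replicate 1 of RE at time point 5 and did not pass.

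Several calls between RE and KO depended on single libraries or time points. Without replicate 4 of KO at time point 6, 7 calls were left, all of them among the 15: Ivl, Hrnr, Flg2, Lce6a, Sprr1a, Sprr1b and S100a3. Without time point 2 only 4 members were called, and the calls of Ivl, Hrnr, Lce6a and Sprr1a held in every fit that left out 1 library or 1 time point. Each of the other 11 was lost in at least 1 of them. The Sprr2a1 call was lost in 23 and the Sprr2d call in 24 of the 72 fits without 1 library. Markers of cell types were called in this comparison too, with 4 of 5 suprabasal markers lower in RE than in KO (median log2 difference -0.34). Of 6 markers of dendritic epidermal T cells 4 were higher (0.36), and of 9 of the inner root sheath and hair shaft 3 were higher (1.34). These counts of a few genes stand beside the 22.5% of all genes called, 11% lower and 11.5% higher. The 2 tested genes of the neutrophil list, S100a8 and S100a9, were higher in RE (2.66). Both are also on the stress keratinocyte list, and the neutrophil markers Ngp, Ly6g and Retnlg had a median of 0 over all libraries. The neutrophil list's summed level reached 246 CPM in replicate 1 of RE at time point 5, and its markers in that library are not given singly. The part of these cells in the members' differences was not tested. Cornification partners ran 15 lower and 2 higher in RE than in KO, the higher ones being Krt2 at 1.83 ± 0.23 (adjusted p = 8.31e-09) and the transglutaminase gene Tgm3 at 0.60 ± 0.17 (adjusted p = 0.00795).

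Rhythm over a 24 h cycle was called for 5 of 32 members in WT epidermis, against 11% of all genes. These were Lce6a, S100a6, Sprr2a1, Sprr2a2 and Sprr2a3. Lce6a averaged 1.83, 1.63, 1.18, 0.88, 1.01 and 1.71 CPM from time point 1 to 6 in WT, highest at the ends and lowest at time point 4. Its fitted peak-to-trough difference was 1.11 ± 0.24 on the log2 scale, with a peak 0.3 h after time point 1 (adjusted p = 0.00303). The call held in each fit without 1 library and not without time point 4 (adjusted p = 0.0548). In KO libraries Lce6a averaged between 1.69 and 2.31 CPM at all time points, and at time point 4 it had 2.61, 2.09, 1.12 and 1.81 CPM in KO, against 1.29, 0.859, 0.583 and 0.792 CPM in WT. Those groups overlap in 1 KO library, and the log2 difference there was 1.12 ± 0.31 (adjusted p = 0.0191), lost without replicate 3 or 4 of WT or replicate 1 or 2 of KO (adjusted p of up to 0.0879).

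S100a6, or calcyclin, had a fitted peak-to-trough difference of 0.53 ± 0.14 in WT, peaking 5.6 h after time point 1 (adjusted p = 0.0225). It did not pass without replicate 3 of WT at time point 3 (adjusted p = 0.0521), replicate 1 or 4 of WT at time point 5, or time point 2 or 5 (adjusted p = 0.11 and 0.273), nor with time point as a factor in place of the cosine (adjusted p = 0.105). The Sprr2a rhythm rested on 1 animal. At time point 4, Sprr2a1 stood at 7.30, 18.1, 6.97 and 11.2 CPM in KO and at 46.3, 8.99, 15.3 and 287 CPM in WT libraries. Without the library at 287 CPM the adjusted p of the WT rhythm of Sprr2a1 was 0.618, against 0.0231 with it. The KO minus WT differences of the 3 genes at time point 4, near -3.0 on the log2 scale, were lost too, with adjusted p of 0.366, 0.336 and 0.311.

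In KO epidermis 0 of 32 members were called rhythmic by edgeR, against 5.87% of all genes. DESeq2 and limma voom likewise called 0, and 5 members had an unadjusted p under 0.05. In RE epidermis 2 members were called, Sprr2d and Sprr2h, against 2.7% of all genes. Both rested on replicate 1 of RE at time point 5, which had 9.33 CPM of Sprr2d where the other 3 RE libraries of that time point had 0.138, 0.223 and 0 CPM. It had 9.61 CPM of Sprr2h where the others had 0.249, 0.195 and 0.0518 CPM. Without it the adjusted p was 0.173 for Sprr2d and 0.292 for Sprr2h, against 3.79e-05 and 6.76e-05 with it. The same library had a summed neutrophil marker level of 246 CPM, against at most 6.55 CPM in WT and 3.08 CPM in KO libraries, and a summed stress keratinocyte marker level of 2324 CPM, the highest of RE, whose median was 560 CPM. These lists share S100a8 and S100a9. The neutrophil markers Ngp, Ly6g and Retnlg had a median of 0 over all libraries, which does not give their levels in this one. The part of these markers in the Sprr2 levels was not tested.

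**Figure D4:**
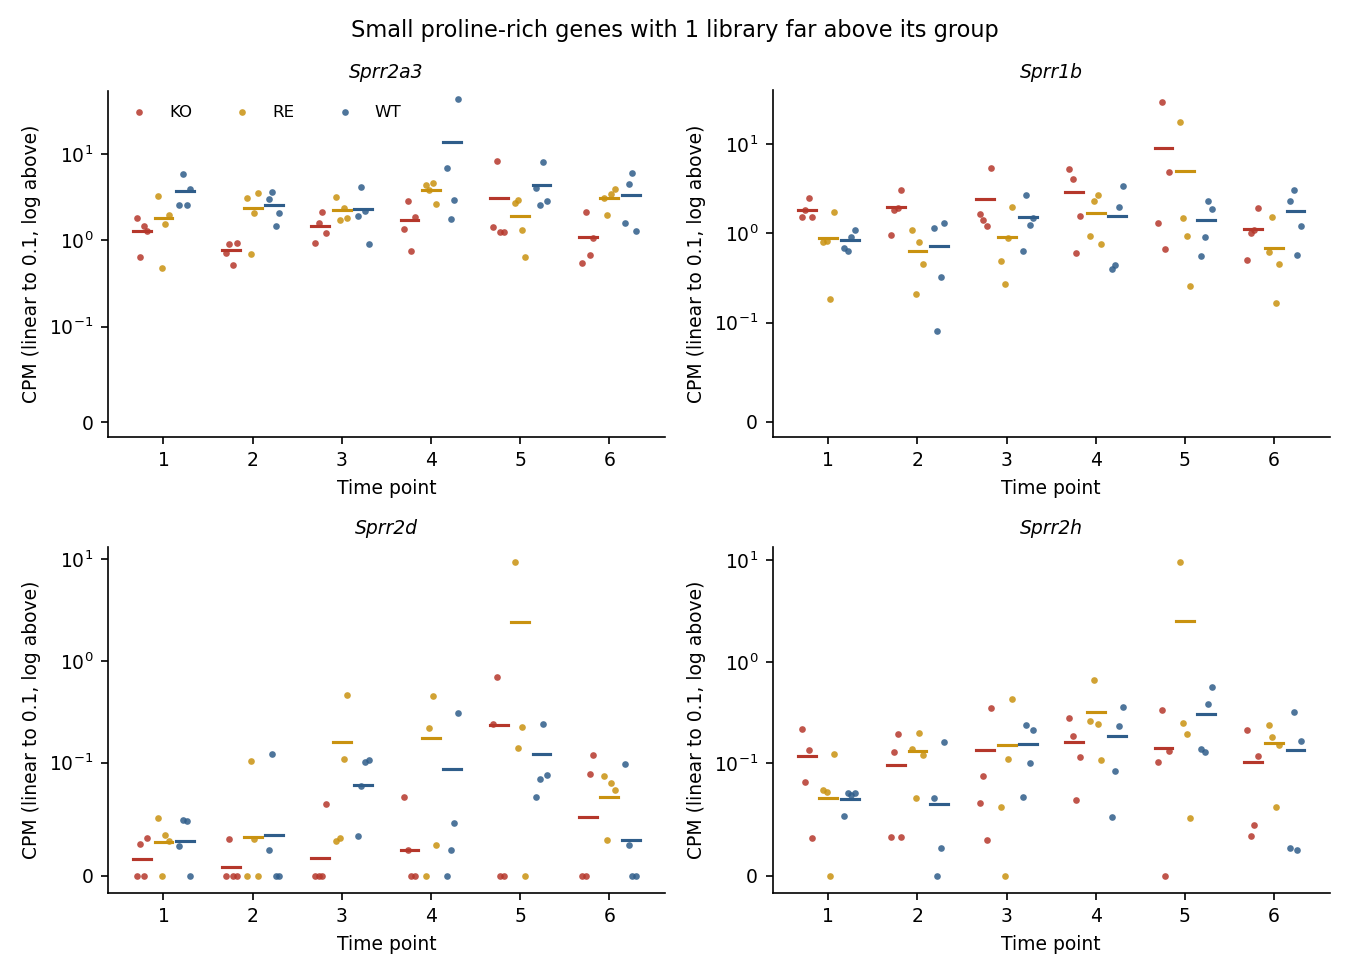
Level of 4 small proline-rich genes in each library in CPM by time point, KO, RE and WT side by side, with bars at group means and an axis that is linear up to 0.1 and logarithmic above. Single libraries stand far above their groups, at 43.7 CPM for Sprr2a3 in WT at time point 4, 29.4 CPM for Sprr1b in KO at time point 5, and 9.33 and 9.61 CPM for Sprr2d and Sprr2h in RE at time point 5.

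Differences in rhythm between genotypes were called by edgeR for 0 of 32 members in each of 3 comparisons. The share of all genes was 6.2% between KO and WT, 2.17% between RE and WT, and 0% between RE and KO. Unadjusted p under 0.05 was reached by 0, 2 and 1 members, and DESeq2 and limma voom called 0 in each. Lce6a, with a peak-to-trough difference of 0.30 ± 0.23 in KO (adjusted p = 0.633), 0.46 ± 0.24 in RE (adjusted p = 0.51) and the called one in WT, was thus not shown to differ in rhythm.

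Single time points were compared with 4 animals per group. Between KO and WT the counts were 0, 0, 2, 4, 0 and 1 from time point 1 to 6, against 1.95%, 3.31%, 7.59%, 5.07%, 6.12% and 3.45% of all genes. At time point 6 the count was 9 when replicate 4 of WT, which stood apart, was left out. At time points 1, 2 and 5, 7, 7 and 5 members had an unadjusted p under 0.05, and DESeq2 called 0, 1 and 1. At time point 3, Ivl had 128, 91.6, 96.6 and 74.0 CPM in KO and 32.8, 50.9, 37.4 and 45.4 CPM in WT, groups that do not overlap. Its log2 difference there was 1.23 ± 0.33 (adjusted p = 0.0129), and it did not pass without replicate 1 of KO or replicate 3 of WT (adjusted p of up to 0.059). Tchh at time point 3 had 11.8, 12.2, 10.2 and 13.1 CPM in KO, 11.0, 9.71, 13.1 and 12.5 CPM in RE, and 23.6, 17.4, 13.2 and 20.6 CPM in WT. Both KO and RE lay below WT in all of these libraries, with log2 differences of -0.66 ± 0.18 (adjusted p = 0.0116) and -0.69 ± 0.18 (adjusted p = 0.0395). The KO call was lost without replicate 1 of WT (adjusted p = 0.0557), and the RE call without replicate 1 or 4 of WT or replicate 1 or 2 of RE (adjusted p of up to 0.177).

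Between RE and WT the counts by time point were 0, 0, 1, 0, 2 and 0, against 0.124%, 0.0647%, 0.739%, 0.583%, 1.08% and 0.0162% of all genes. At the 4 time points with none, 1, 1, 3 and 0 members had an unadjusted p under 0.05, and DESeq2 called 0 at each. The 2 members at time point 5 were Sprr2d and Sprr2h, and without replicate 1 of RE their log2 differences were -0.011 and -0.87 and did not pass (adjusted p = 0.998 and 0.672). Tchh at time point 6 was called between KO and WT, with 12.1, 11.0, 11.9 and 9.58 CPM in KO and 20.8, 21.7, 14.2 and 15.3 CPM in WT. Those groups do not overlap, and the log2 difference was -0.69 ± 0.18 (adjusted p = 0.0184). It was lost without replicate 1 or 2 of WT or replicate 4 of KO (adjusted p of up to 0.096).

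Members varied together in blocks. Each library's deviation from its group mean was correlated between all 496 pairs of the 32 tested members over 72 libraries, with 100000 permutations within groups. After Benjamini-Hochberg adjustment over the pairs, 127 pairs were positively and 19 negatively correlated at adjusted p under 0.05, and the median Pearson r was 0.38 within and 0.08 across families. All of the r values named next had a permutation p of 1e-05, the smallest these permutations can give, and an adjusted p of 0.00015 for r and 0.000142 for rho. Ivl went with Hrnr (r = 0.80, rho = 0.78) and Flg2 (r = 0.76, rho = 0.72), and Flg2 with Hrnr (r = 0.89, rho = 0.85). Lor went with Crct1 (r = 0.79, rho = 0.77) and Lce1m (r = 0.72, rho = 0.64), S100a14 with S100a16 (r = 0.91, rho = 0.82), and Sprr1b with Sprr1a (r = 0.80, rho = 0.86) and Sprr2h (r = 0.80, rho = 0.77). S100a13 ran against Hrnr (r = -0.71, rho = -0.60). Without the 2 libraries farthest from the median of 1 gene of each pair, these r values were 0.77, 0.73, 0.87, 0.75, 0.67, 0.89, 0.80, 0.75 and -0.68 in that order. Sprr2a1 followed neither Ivl (r = -0.22, adjusted p = 0.279) nor Sprr1b (r = 0.34, adjusted p = 0.0954) at that threshold. The libraries share normalization and differ in cell makeup, depth and the 3 libraries that stood apart, whose part in these blocks was not tested.

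**Figure D5:**
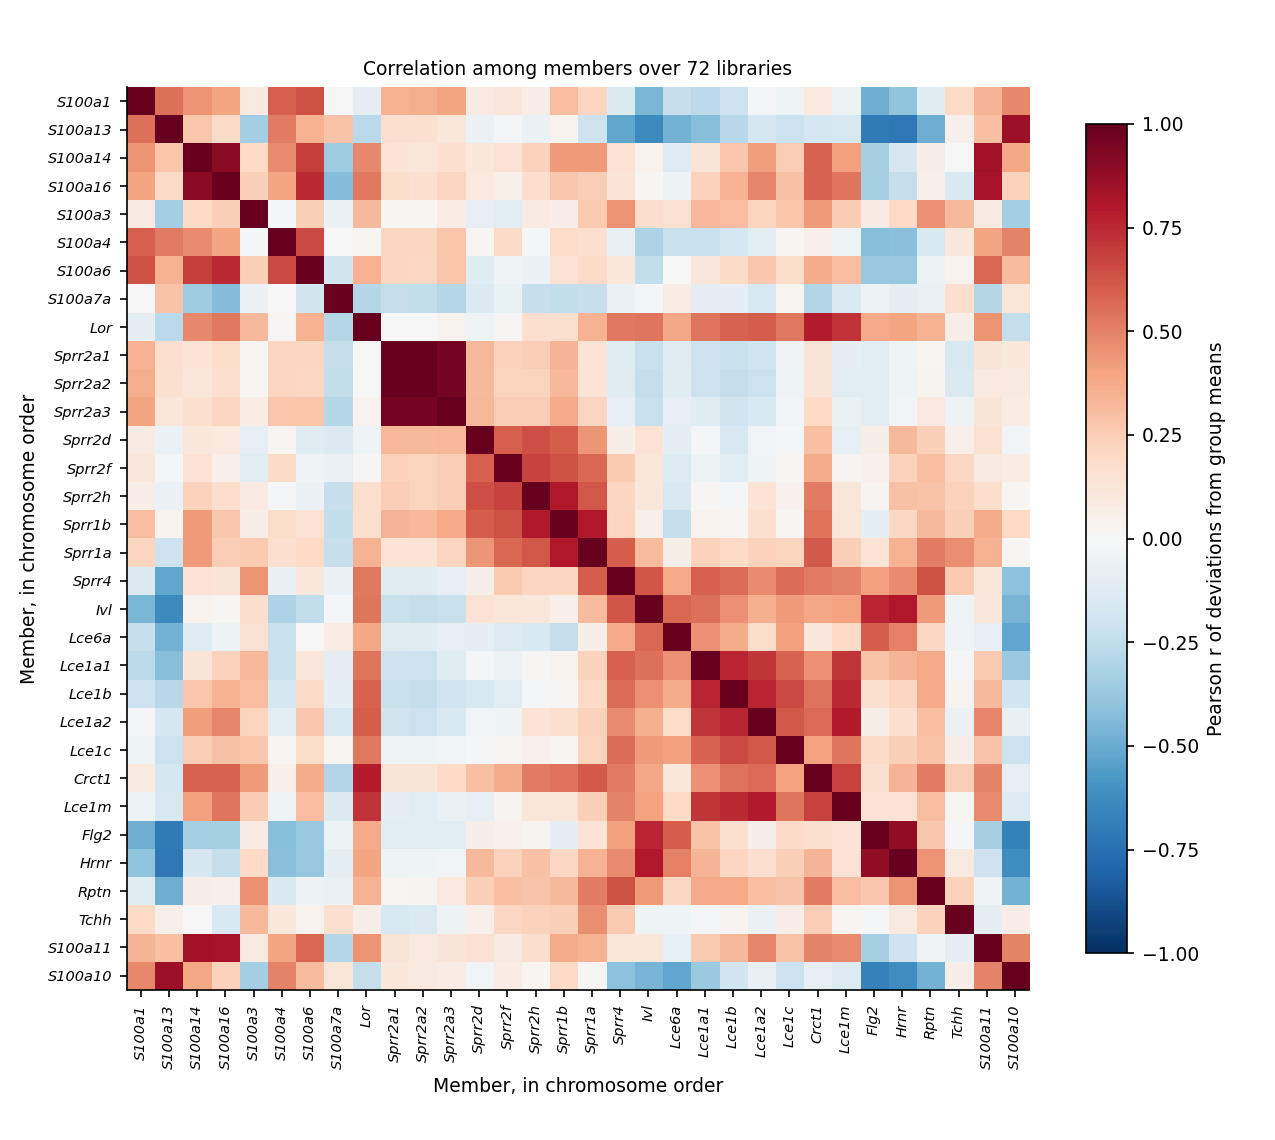
Pearson correlation of the 32 tested members' deviations from their group means over 72 libraries, with members in chromosome order on both axes and colour from -1 (blue) to 1 (red). Blocks of red mark the Sprr2a genes, the other small proline-rich genes, the Lce1 genes with Lor and Crct1, Ivl with Flg2 and Hrnr, and S100a14 with S100a16 and S100a11.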

How the data were processed

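RNA from 72 interfollicular epidermis samples was sequenced, 4 animals in each of 18 groups. The authors deposited whole-number counts per gene and library, and per the submitters' processing notes they used Trimmomatic, TopHat2 (version 2.1.1) and featureCounts with GRCm38. In the sources used here, the annotation, strand setting and treatment of reads with several positions are not given. Of 46078 identifiers, 45143 matched GENCODE M21, which gave symbols and exon lengths.

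Counts were tested with edgeR (version 4.0.16, R 4.3.3) after its low-count filter (minimum count 10) and TMM scaling (factors 0.866 to 1.11), which left 18538 genes. Rhythm and mean level came from a quasi-likelihood fit of all libraries with a 24 h cosine per genotype, and single time points from a fit of the 18 groups. Benjamini-Hochberg adjustment ran over all tested genes, and calls have an adjusted p under 0.05. CPM use the scaled library sizes. Fits were tested on simulated data. Replicate pairs differed beyond counting noise, with chi-square per gene of 8.38 to 292 over 108 pairs, and were counted as separate animals.

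The members and lists were chosen with earlier results of these data known. Named genes were the fused S100 and other envelope members, the 3 highest members per kb in each family, up to 12 called members per comparison, and up to 4 genes of each list. Alternatives were DESeq2 size factors, no filter, limma voom (limma 3.58.1), DESeq2 (1.42.0), time point as a factor, a replicate block, each library or time point left out, and 2 sets of libraries chosen after seeing the data.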

Additional observations from a re-analysis of the deposited data

Results flagged for a closer look

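For the 9 members called in a rhythm or single time point test, the highest and lowest of the 4 libraries in each of 18 groups were examined, 162 groups in all. In 23 of them 1 library stood apart from the other 3 by more than Dixon's 95% critical value. Chance flags about 1 in 20 groups of normally distributed values, and the CPM tested here are skewed and near 0 for some members. Where the other libraries had 0, as for Sprr2d in KO at time points 2 and 3, any count at all is flagged. The number flagged is therefore no measure of an excess over chance. The genes were not independent, since the Sprr2a genes share sequence.

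Replicate 4 of WT at time point 4 had 287 CPM of Sprr2a1, 283 CPM of Sprr2a2, 43.7 CPM of Sprr2a3 and 0.306 CPM of Sprr2d, where the other WT libraries of that time point had at most 46.3, 47.1, 6.89 and 0.0466 CPM. Replicate 2 of KO at time point 5 had 59.3 CPM of Sprr2a1, 56.7 CPM of Sprr2a2 and 8.43 CPM of Sprr2a3, against at most 9.51, 9.37 and 1.44 CPM in the other KO libraries there. Replicate 2 of KO at time point 6 had 14.8 CPM of Sprr2a1 and 14.8 CPM of Sprr2a2, and replicate 1 of RE at time point 3 had 22.0 and 21.0 CPM of those genes.

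Replicate 1 of RE at time point 5 had 9.33 CPM of Sprr2d and 9.61 CPM of Sprr2h. Sprr2d also stood apart at 0.0326 CPM in replicate 2 of KO at time point 2, 0.0639 CPM in replicate 4 of KO at time point 3 and 0.238 CPM in replicate 3 of WT at time point 5, levels at or near a few counts. Sprr2h was low in replicate 1 of WT at time point 1, at 0.0530 CPM.

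At time point 6, replicate 4 had 318 CPM of Ivl in KO, where the others had 77.9 to 95.6 CPM, and 116 CPM in WT, where the others had 53.6 to 61.3 CPM. Lce6a stood at 3.90 CPM in that KO library and at 2.37 CPM in replicate 1 of RE at time point 6, and was low at 0.638 CPM in replicate 3 of WT at time point 3. Tchh was high in replicate 3 of KO at time point 1, at 14.0 CPM.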

How the results depend on the processing

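Counts of called members are given against those in the report. Between KO and WT the 15 calls ran from 13 to 19 when 1 library was left out and stayed within 1.5 times under every other alternative run. Rhythm calls in WT were 3 with no filter, 3 with the replicate block, 2 with limma voom, 1 without time point 2, 1 without time point 4 and 2 without the 6 libraries (the 3 that stood apart and the 3 highest in small proline-rich genes). They were 2 to 6 without 1 library. Rhythm calls in KO were 1 without time point 3 and 0 to 1 without 1 library. In RE they were 0 with limma voom, 4 with time point as a factor, 1 without time point 4, 0 without time point 5, 0 without the 6 libraries and 0 to 4 without 1 library. Calls between RE and WT were 2 with DESeq2, 2 without time point 6, 2 without the 3 libraries that stood apart and 1 to 3 without 1 library. Between RE and KO they were 8 with no filter, 8, 4, 7 and 8 without time point 1, 2, 4 and 6, and 7 to 16 without 1 library.

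For KO minus WT, time point 2 had 1 call with DESeq2, 1 without the 3 libraries, 2 without the 6 and 0 to 2 without 1 library. Time point 3 had 1 to 3 without 1 library. Time point 4 had 1 with limma voom, 1 without the 6 libraries and 0 to 4 without 1 library. Time point 5 had 1 in each of DESeq2, the fit without the 3 libraries and that without the 6, and 0 to 1 without 1 library. Time point 6 had 3 with DESeq2 and 0 to 9 without 1 library. For RE minus WT, time point 3 had 0 with no filter, limma voom and the replicate block, and 0 to 1 without 1 library. Time point 5 had 0 with those 3, with DESeq2 and without the 6 libraries, and 0 to 2 without 1 library. The log2 difference at time point 5 ran from -0.011 to 4.81 for Sprr2d and from -0.87 to 3.53 for Sprr2h without 1 library, with the lowest value of both when replicate 1 of RE was left out. For Sprr2h it was -0.87 without the 6 libraries. The fits without 3 or 6 libraries were chosen after seeing the data.

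Replicate numbers did not pair the samples as a whole. Of 72 same-numbered pairs 28 had a correlation over 0.1 (lowest -0.49, median 0.05, highest 0.68). Only 12 of 72 libraries were closest to their own number. Whether single same-numbered pairs shared handling was not tested. With the replicate block the calls were 14 between KO and WT, 1 between RE and WT and 14 between RE and KO. The cause of these changes was not tested. Members near 0 counts, such as Sprr2d and Sprr2f, are limited by depth.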
